A study of Mus musculus with 12 samples.

Results

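The proteins of the cytosolic ribosome were read here through their mRNAs in glomerular cells, labelled as glomerular endothelial cells (GEC), that were sorted from mice by the strength of a red reporter. Members were the rows whose gene name is Rps or Rpl with a number, or is Rplp0, Rplp1, Rplp2 or Rpsa, and whose deposited transcript type is protein_coding. This gave 67 of 17811 genes in the dim tdT table and 65 of 17521 in the bright tdT table, all 65 of them in both. Of the 67, 25 belong to the small and 42 to the large subunit, and they lie on 19 chromosomes. Rpl3l and Rpl39l, copies of Rpl3 and Rpl39, stood only in the dim tdT table, where they had 2 to 13 and 0 to 18 counts a library, and were not tested. A further 16 genes fit the name but carried another deposited type, and 13 of these are protein coding in Gencode M21, so that the 67 are not every ribosomal protein gene of the mouse.

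The 12 libraries came from 3 wild-type (WT) and 3 Alport syndrome (AS) mice of 4 month on C57BL/6, and from each mouse a dim tdT (sort gate P6) and a bright tdT (gate P7) fraction of tdTomato-positive glomerular cells was sequenced. The labels give the AS genotype as Col4a5 -/-. Alport syndrome is a hereditary disease of the type IV collagen in the glomerular basement membrane, and Col4a5 encodes one of its chains. All mice, WT included, carried the TekCre tdTomato reporter, in which Cre under the Tek promoter turns on tdTomato, so a cell that had used Tek earlier in its lineage can be red as well. The question of the comparisons was how the bright tdT and dim tdT fractions differ within a genotype and how AS differs from WT within a fraction.

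A ribosome consists of a small subunit, which reads the mRNA, and a large subunit, which joins the amino acids. Nearly every ribosomal protein is present once in each ribosome, and cells make them in step with one another. The mRNAs mostly begin with a C and a run of pyrimidines, the 5′ terminal oligopyrimidine (TOP) motif, through which mTOR and LARP1 switch their translation, whereas the amount of mRNA measured here follows transcription and decay. In endothelial cells, as elsewhere, ribosomal protein mRNAs are among the most abundant.

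The letters at the annotated start of transcription are shown for members described below, since the TOP motif is the feature by which this family is known. Each run holds 10 bases before and 20 bases from the start on, 5′ to 3′ on the strand of the gene, from RefSeq on GRCm38.p6, and capitals mark a pyrimidine run that begins with C exactly at that start.
Rps6, chr4:86857348-86857377, minus strand: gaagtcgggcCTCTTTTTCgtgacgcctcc
Rps15a, chr7:118116128-118116157, minus strand: tttctgccatCTTCCCTCgccggtgagtga
Rplp2, chr7:141447641-141447670, plus strand: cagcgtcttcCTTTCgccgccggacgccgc
Rpl38, chr11:114668570-114668599, plus strand: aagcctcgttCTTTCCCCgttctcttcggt
Rplp0, chr5:115559457-115559486, plus strand: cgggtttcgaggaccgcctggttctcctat
Rpl27, chr11:101442235-101442264, plus strand: ctgttcctgtctgctgctcgtgctgctaat
Rpl41, chr10:128549149-128549178, minus strand: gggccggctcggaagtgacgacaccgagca

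Rps6, Rps15a, Rplp2 and Rpl38 began with such a run of 9, 8, 5 and 8 pyrimidines, and Rplp0, Rpl27 and Rpl41 had none at the annotated base. RefSeq gave a start for 52 of the 67 members. A C followed by at least 4 pyrimidines stood exactly at the start in 12 of the 52 (23.1%), against 3.01% of 27025 genes, and within 20 bases of it in 44 (84.6%), against 52.6%. In the window from 250 bases before to 50 after the start, read on both strands, CCGGAAG, the core bound by Ets factors such as GABP, was found in 22 of 52 (42.3%), against 9.93% of all genes. CCGCCC, a core of Sp1 sites, was found in 35 (67.3%, against 38.2%), and AAGATGGC, the core of YY1 sites, in 4 (7.69%, against 3.19%). A match of letters is not a site shown to be bound.

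Each library held 11440169 to 15074909 counts on genes, of which mitochondrially encoded genes took 2.59% to 13.3% and were highest in the WT dim tdT libraries. Col4a5 itself was at 67.6, 37.1 and 73.9 CPM (counts scaled to the TMM size of the library) in the WT dim tdT and at 3.60, 1.99 and 1.36 CPM in the AS dim tdT libraries, replicates 1 to 3 in that order here and throughout. In the bright tdT libraries it was at 9.996, 4.92 and 5.13 CPM in WT and 3.13, 6.79 and 4.00 CPM in AS. These overlapped, so its mRNA does not check the genotype labels there. In dim tdT, 8 of 14 proximal tubule and 8 of 13 endothelial markers were also lower in AS. Genotype and cell content cannot be told apart in the Col4a5 values of that fraction. The label GEC was checked against 14 endothelial markers, which summed to 10836 to 19082 CPM in the bright tdT libraries but to 242 to 1368 CPM in the dim tdT ones, where 17 leukocyte markers summed to 4215 to 10684 CPM. The dim tdT fraction is therefore called by its gate and not by a cell type. In these bulk libraries, fewer cells of a type and less RNA per cell cannot be told apart.

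The members took a smaller share of the counts in bright tdT than in dim tdT libraries of both genotypes. They held 2.84% ± 0.269 (SD, n = 3, lowest 2.57%, highest 3.11%) of all gene counts in WT dim tdT and 1.40% ± 0.372 (0.981% to 1.69%) in WT bright tdT. In AS they held 2.87% ± 0.103 (2.76% to 2.97%) in dim tdT and 1.37% ± 0.200 (1.25% to 1.61%) in bright tdT. No bright tdT library reached the lowest dim tdT one, whereas WT and AS overlapped within both fractions. WT bright tdT replicate 2 was the lowest of the 12.

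Rpl27, of the large subunit, alone took 22.7% ± 3.44 of the member counts in WT dim tdT, 18% ± 1.3 in AS dim tdT, 21.3% ± 4.57 in WT bright tdT and 14.2% ± 3.6 in AS bright tdT (SD, n = 3 each). Without it the members' shares of all gene counts were 2.19%, 2.35%, 1.10% and 1.18% in the same order, so that bright tdT was again lower. Counts on small subunit members per count on large subunit members were 0.474 ± 0.00682 in WT dim tdT, 0.547 ± 0.0178 in AS dim tdT, 0.469 ± 0.0375 in WT bright tdT and 0.560 ± 0.0342 in AS bright tdT. Without Rpl27 these ratios came to 0.715, 0.756, 0.682 and 0.719.

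The shares are relative to all other mRNA in a library, and on the scale of the added ERCC spike-in RNAs the ranges of the fractions overlapped in both genotypes. Member counts per ERCC count were 11 to 16.8 in WT dim tdT and 14.2 to 32.4 in WT bright tdT, 20.3 to 22.2 in AS dim tdT and 20.2 to 43.7 in AS bright tdT. All gene counts per ERCC count were 354 to 656, 908 to 3300, 734 to 771 and 1258 to 3501 in the same order. How the spike-ins were added relative to the number of cells is not given in the sources used here, so all decreases below are relative to the other mRNAs of the library.

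**Figure D1:**
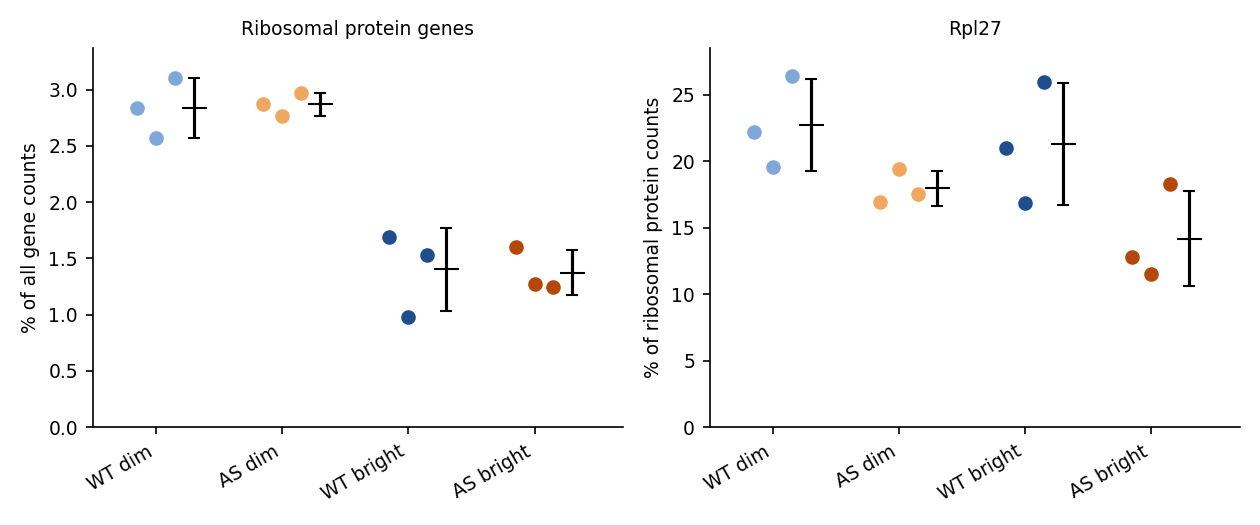
Left, percent of all gene counts taken by the ribosomal protein genes, and right, percent of their counts taken by Rpl27, in each of the 12 libraries (points) with the mean and SD of each group (n = 3). The bright tdT libraries lie between 0.981% and 1.69% and the dim tdT ones between 2.57% and 3.11%, whereas the ranges overlapped per ERCC spike-in count.

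Levels of single members differed widely per length. Reads can be lost to near-identical copies, counted further below, and their part in these levels was not tested. On the scale of the deposited RPKM (reads scaled to gene length and library size), the means over the 12 libraries were highest for Rplp1 at 2824, Rpl36 at 2003 and Rpl27 at 1510, followed by Rps15 at 491, Rpl17 at 327, Rpl4 at 298, Rps4x at 251, Rps14 at 222, Rpl8 at 211 and Rps23 at 160. The order differed between groups, and in WT bright tdT Rpl17 (138) stood below Rpl4, Rps14 (158), Rps4x (155) and Rpl8 (145). Rplp1 is a protein of the acidic stalk that recruits translation factors, Rpl4 and Rpl17 line the tunnel through which the new chain leaves, Rpl8 stands at the peptidyl transferase centre and Rps15 and Rps23 at the decoding centre. The deposited gene length exceeded the merged exons of Gencode M21 in 63 of 65 members, by a median factor of 1.96. Rpl17 and Rpl8 were the exceptions, with deposited lengths of 0.589 and 0.639 times the merged exons. When CPM per kilobase of merged exons was ranked, 7 of the 10 genes stayed among the top 10. Rpl17 and Rpl8 then stood at ranks 16 and 26.

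In WT, 42 of 65 tested members were lower and 1 was higher in bright tdT, relative to the other mRNAs of a library and not per spike-in count. The test was edgeR's quasi-likelihood test on counts with Benjamini-Hochberg adjustment over all genes, and 11.5% of all 14247 genes tested were called lower and 13.8% higher (25.3% either way). The median log2 fold change of the members was -1.02, a fold of 2.02 downward, beside -0.04 for all genes, and 55 of 65 members lay below the dim tdT libraries without overlap, as did 19.7% of all genes (1 member and 22.2% above). Without WT bright tdT replicate 2, WT bright tdT replicate 3 or WT dim tdT replicate 3 the number called lower was 22, 23 and 26. With the mouse as a block, since both fractions came from the same mice, 51 were lower and 2 higher.

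In AS, 49 of 64 tested members were lower and 1 was higher in bright tdT, where 26.5% of all genes were called lower and 28.6% higher (55.1% either way). The members' median was -0.88, a fold of 1.85 downward, against 0.02 for all genes, and 52 of 64 lay below without overlap (all genes 30.5%), with 1 above (all genes 31.9%). Within mice, the median log2 ratio of bright tdT to dim tdT was -0.91, -1.2 and -1.09 in the 3 WT and -0.61, -0.95 and -1.25 in the 3 AS mice. All 3 WT mice had the lower value in bright tdT for 60 of 65 members, and all 3 AS mice for 54 of 64. Rpl41 was the only member higher in bright tdT in every mouse of either genotype.

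Of 64 members tested in both genotypes, 41 were lower in both, which is 97.6% of the WT and 83.7% of the AS calls. Of all 13560 genes tested in both, 10.5% were lower in both, which is 88.7% of the WT and 39.8% of the AS calls. Rpl18 passed in WT alone, and Rpl27, Rpl29, Rpl35, Rpl35a, Rpl37, Rps20, Rps21 and Rps27 in AS alone, which by itself does not show a difference between the genotypes. The remaining 14 included Rpl41, called higher in both, and 13 that passed in neither, namely Rpl13a, Rpl15, Rpl24, Rpl27a, Rpl31, Rpl36a, Rpl39, Rpl7a, Rps14, Rps2, Rps25, Rps27l and Rps3. With the mouse as a block, Rpl27 (adjusted p = 0.00302), Rps14 (0.0121), Rps27 (0.0237), Rps20 (0.0282), Rpl36a (0.0315), Rps25 (0.0375), Rpl29 (0.044), Rpl35 (0.047) and Rpl15 (0.0492) were also called lower in WT. In AS, Rps25 (0.0499) gained a call and Rpl35 (0.0572) lost it.

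**Figure D2:**
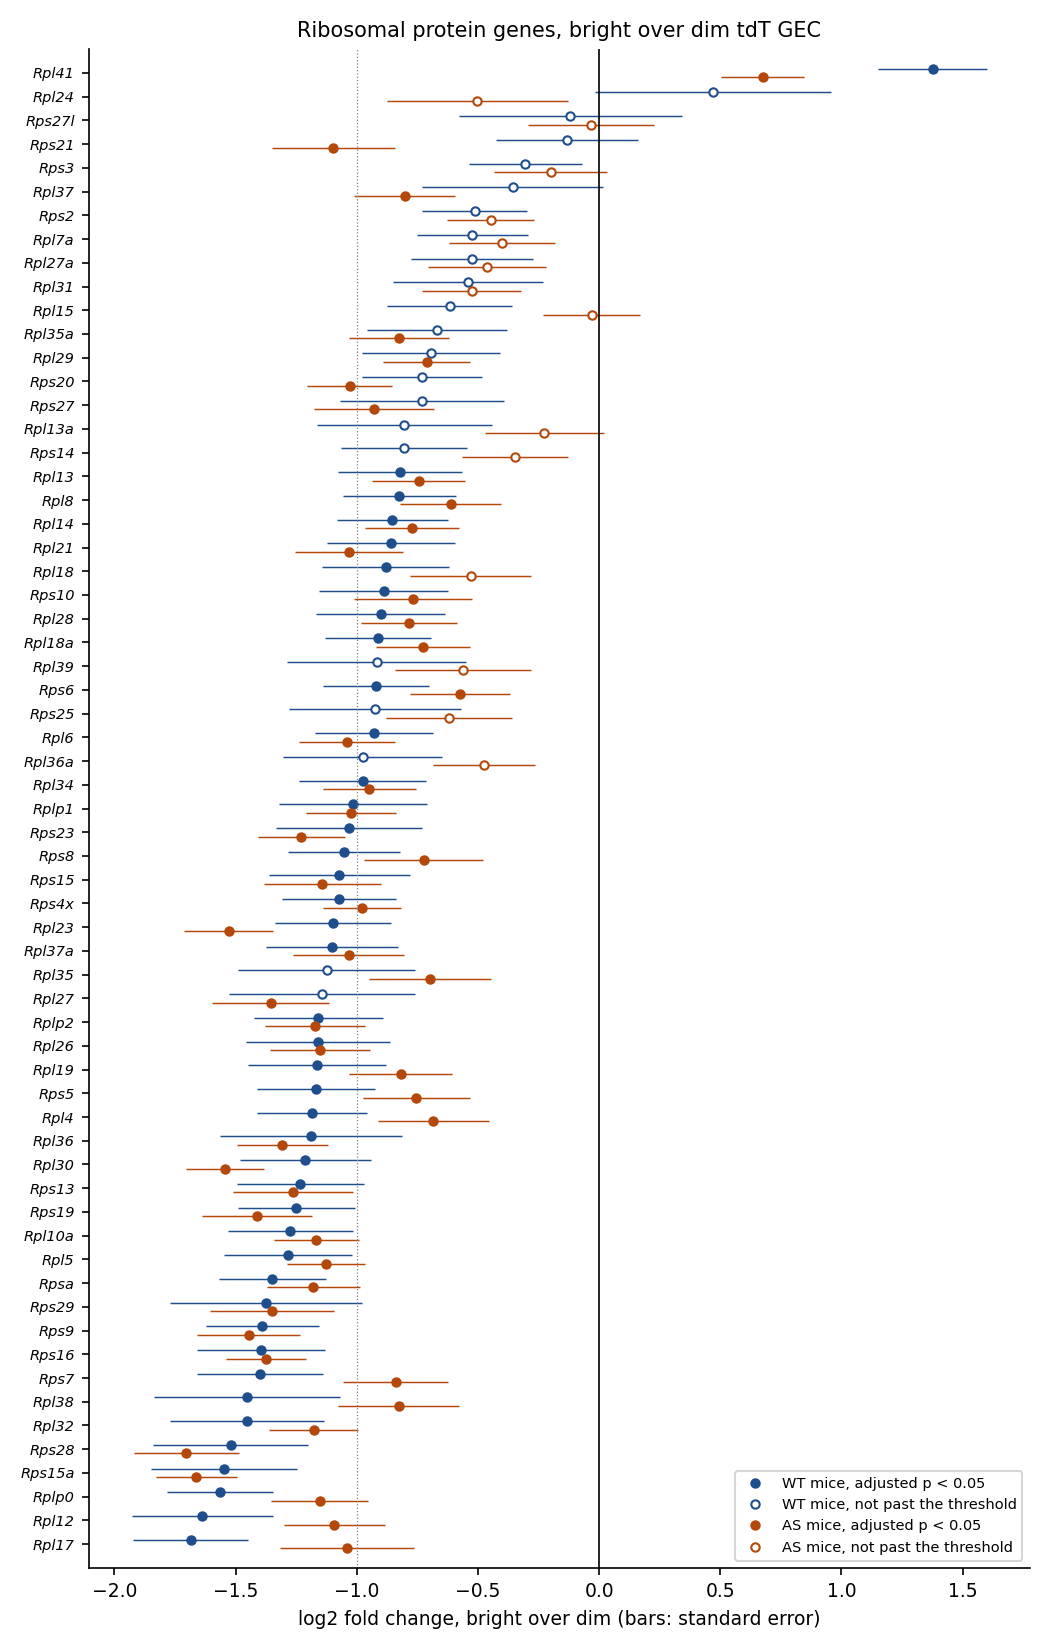
Bright tdT over dim tdT, as log2 fold change, for the ribosomal protein genes tested in both genotypes except 1, ranked by the WT value, with bars for the standard error and filled points for an adjusted p under 0.05 (edgeR, 3 against 3 libraries). Most members lie below 0 in both genotypes, around medians of -1.02 in WT and -0.88 in AS, and Rpl41 stands above 0, all relative to the other mRNAs of a library and not per spike-in count.

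Other markers moved with this difference. The 10 leukocyte markers tested were all lower in bright tdT in both genotypes, and the summed leukocyte markers ranged from 4215 to 6900 CPM in WT dim tdT and 8786 to 10684 CPM in AS dim tdT, but from 37.6 to 49.3 and from 51.3 to 81.1 CPM in the bright tdT libraries, where 10 of the 18 listed had a row. Of the 14 endothelial markers, 13 were higher in bright tdT in both genotypes and Vwf was lower in both, and their sums were 741 to 1368 CPM in WT dim tdT, 242 to 328 in AS dim tdT, 10836 to 16698 in WT bright tdT and 16163 to 19082 in AS bright tdT. Proximal tubule markers summed to 1705 to 7737, 16.1 to 468, 536 to 3240 and 62.5 to 622 CPM in the same order, podocyte markers to 820 to 1602, 818 to 860, 999 to 1272 and 1411 to 1597, and mesangial markers to 188 to 367, 85.6 to 180, 733 to 1416 and 993 to 1860. Of the 8 podocyte markers, 1 was higher and 5 lower in bright tdT in WT (median log2 fold change -1.60), and 5 were higher and 2 lower in AS (median 0.77). None of the listed markers with a row was at 0 in a whole group. Their part in the ribosomal protein difference was not tested.

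The mRNAs of the stalk proteins fell, as most members did. Rplp0, the base of the stalk, was at 836, 709.9 and 636 CPM in the WT dim tdT and 255, 236 and 221 CPM in the WT bright tdT libraries, without overlap, a log2 fold change of -1.56 (SE 0.22, adjusted p = 0.000868). In AS it was at 866, 767 and 878 CPM in dim tdT and 488, 314 and 336 CPM in bright tdT, again apart, at -1.15 (SE 0.20, adjusted p = 0.000785). Its partners on the stalk fell as well, beside medians over all members of -1.02 in WT and -0.88 in AS. A joint fall of the stalk was not tested. Rplp1 fell by 1.02 on the log2 scale in both genotypes (adjusted p = 0.0386 in WT, lost in 5 of 16 alternatives, and 0.00101 in AS), and Rplp2, one of the genes with a pyrimidine run at the start, fell by 1.16 in WT and 1.17 in AS (adjusted p = 0.0120 and 0.000845).

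**Figure D3:**
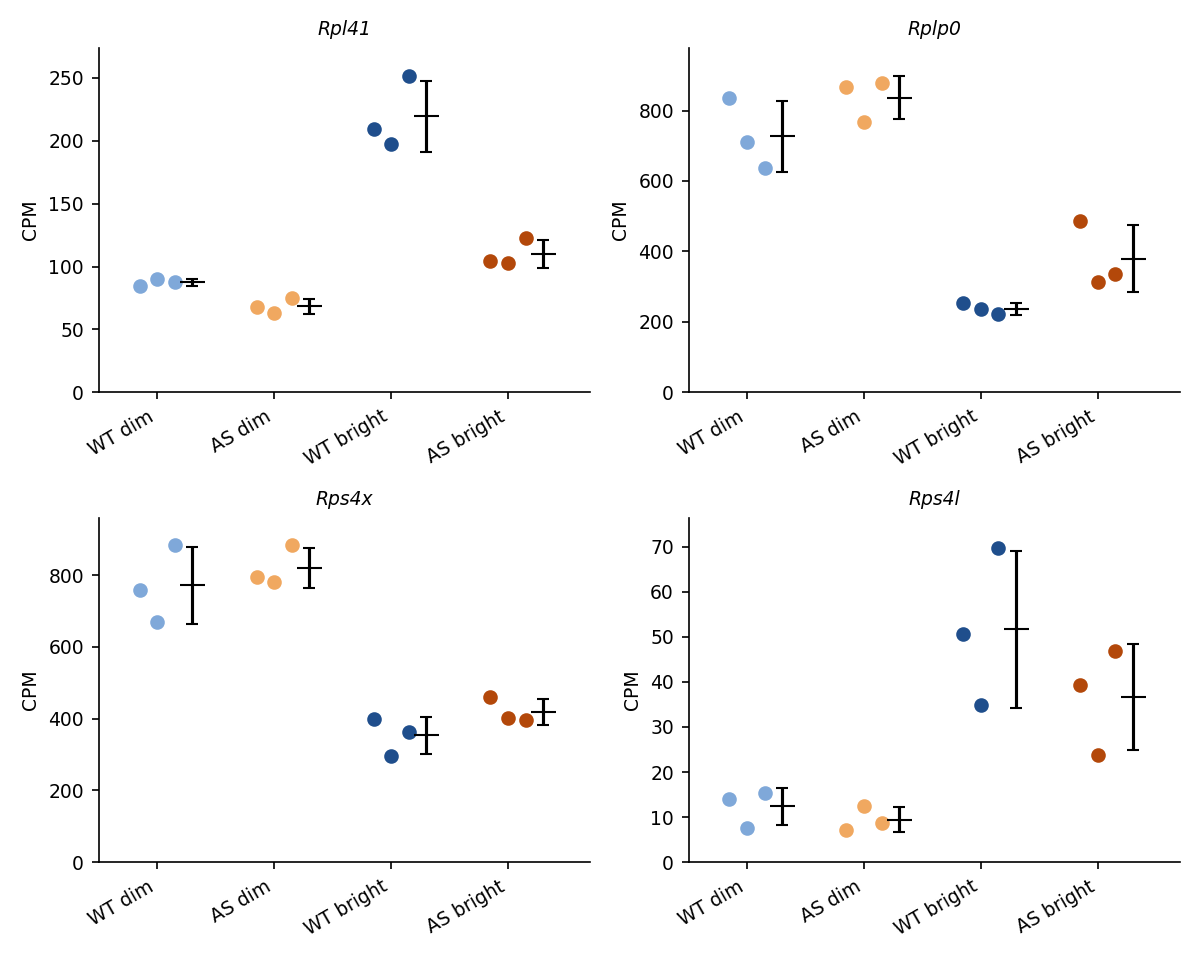
CPM of Rpl41, Rplp0, Rps4x and Rps4l in each library (points) with the mean and SD of each group (n = 3), each panel with an axis of its own. Rplp0 and Rps4x are lower and Rpl41 and Rps4l higher in bright tdT than in dim tdT libraries of both genotypes, all relative to the other mRNAs of a library, and for Rpl41 the WT and AS points do not overlap within either fraction.

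In the small subunit, 17 of 25 tested members were lower in bright tdT in WT (median -1.07) and 20 of 25 in AS (median -1.03). None was higher. Of all genes, 11.5% were lower and 13.8% higher in WT, and 26.5% and 28.6% in AS. Rps15a and Rps28 had the 2 lowest log2 fold changes of all members in AS. Rps15a was at 1857, 1539 and 2272 CPM in WT dim tdT and 721, 415 and 729 CPM in WT bright tdT, and at 1846, 1801 and 1822 and 577, 525 and 639 CPM in the AS fractions, with no overlap in either genotype. The log2 fold changes were -1.55 (SE 0.30, adjusted p = 0.00517) in WT and -1.66 (SE 0.17, adjusted p = 1.74e-05) in AS. Rps28, at the mRNA exit of the small subunit, was at 178, 116 and 177 CPM in WT dim tdT and 60.0, 34.6 and 63.3 CPM in WT bright tdT, and at 149, 131 and 158 and 54.9, 47.6 and 32.8 CPM in AS, which gave -1.52 (SE 0.32, adjusted p = 0.00762) and -1.70 (SE 0.22, adjusted p = 9.39e-05). Exons of Rps28 overlap those of Kank3 on the opposite strand, and the strand used in counting is not given in the sources used here.

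Further small subunit members lie at the decoding region and the mRNA channel, and differences between them were not tested. Rps15 fell by 1.07 in WT and by 1.14 in AS on the log2 scale, and Rps23 by 1.03 and 1.23, both genes past the threshold in both genotypes. In WT each lost its call in 4 of 16 alternatives, with an adjusted p of up to 0.0919 for Rps15 and 0.0945 for Rps23. Rps3, which lies at the mRNA entry and also has a part in DNA repair, had values that overlapped between fractions, with 373, 315 and 439.7 CPM in WT dim tdT and 311, 251 and 319 CPM in WT bright tdT, and a log2 fold change of -0.30 (SE 0.23, adjusted p = 0.375). In AS it was -0.20 (SE 0.23, adjusted p = 0.494). Rps25, used by viral internal ribosome entry sites, had -0.93 (adjusted p = 0.0902) and -0.62 (0.0674), and Rps14, lost in the 5q- syndrome, -0.81 (0.0501) and -0.35 (0.206) in WT and AS, before the mouse was taken as a block.

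Of 13 members listed for known roles outside the ribosome or in disease, 8 were lower in each genotype and none was higher, beside 42 of 65 members and 11.5% of all genes lower in WT and 49 of 64 and 26.5% in AS. The list also holds Rpl11, Rps27a, Rpl10 and Rpl22, which are not members because of their deposited type. Rps6, the substrate of S6 kinase, fell from 199.5 ± 12.2 to 102 ± 9.05 CPM in WT and from 258 ± 37.5 to 175 ± 42.1 CPM in AS (mean ± SD, n = 3), and the log2 fold changes were -0.92 (SE 0.22, adjusted p = 0.0140) and -0.57 (SE 0.20, adjusted p = 0.0363). The fractions lay apart in both genotypes. Rpl5 and Rpl11, which with the 5S rRNA bind Mdm2 and so stabilise p53, fell by 1.29 and 1.0 in WT and by 1.13 and 0.93 in AS on the log2 scale, all past the threshold. Rps6 lost its call in 2 of 16 alternatives in WT and 4 in AS (adjusted p up to 0.0742 and 0.139), and Rpl11 in 4 in WT (up to 0.0959). Rps19, the gene most often mutated in Diamond-Blackfan anaemia, fell by 1.25 in WT and by 1.41 in AS, and Rpsa, also known as a laminin receptor, by 1.35 and 1.18.

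Rps27a, made as a fusion with ubiquitin, fell by 1.08 in WT and by 1.27 in AS, and Rpl38, linked to translation of Hox mRNAs, by 1.45 and 0.83 on the log2 scale. Rps27a lost its call in 4 of 16 alternatives in WT, and Rpl38 in 3 in WT and 2 in AS. Others on the list did not pass in both. Rpl10, needed for subunit joining, had -0.53 (adjusted p = 0.141) in WT and -0.87 (0.00146) in AS. Rpl13a, which silences inflammatory mRNAs in the GAIT complex, had -0.80 (0.140) and -0.23 (0.463), and Rpl22, needed in T cell development, -0.51 (0.221) and -0.07 (0.784). Of these 4 genes outside the rule, 2 were lower in WT and 3 in AS.

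In the large subunit, 25 of 40 members were lower in WT and 29 of 39 in AS, beside 11.5% and 26.5% of all genes. Rpl41 was the 1 higher in each, beside 13.8% of all genes in WT and 28.6% in AS. Rpl17 and Rpl12 had the 2 lowest values in WT. Rpl17, at the tunnel exit, was at 317, 334 and 403 CPM in WT dim tdT and 105, 91.1 and 121 CPM in WT bright tdT, and at 396, 332 and 435 and 268, 187 and 114 CPM in AS, without overlap. It gave -1.68 (SE 0.24, adjusted p = 0.000913) and -1.04 (SE 0.28, adjusted p = 0.00953). Rpl12, beside the base of the stalk, fell by 1.64 in WT and by 1.09 in AS. Rpl30 and Rpl23 were the lowest of the large subunit in AS, where they fell by 1.54 and 1.53, and in WT they fell by 1.21 and 1.10.

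Rpl27, the member with the most counts, was at 6682, 4847 and 8714 CPM in WT dim tdT and 3268, 1611 and 3934 CPM in WT bright tdT, with a log2 fold change of -1.14 (SE 0.38, adjusted p = 0.0583), and at 4784, 5319.7 and 5279.6 and 2175, 1384 and 2503 CPM in AS, with -1.36 (SE 0.24, adjusted p = 0.000882). In WT the spread within each fraction was wide, but the fractions did not overlap. Rpl36 fell by 1.19 in WT and by 1.31 in AS, Rpl4 by 1.18 and 0.68, and Rpl8 by 0.82 and 0.61. The WT call was lost in 8 of 16 alternatives for Rpl36 (adjusted p up to 0.133) and in 5 for Rpl8 (0.129), and the AS call in 3 for Rpl4 (up to 0.0953) and in 2 for Rpl8.

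Rpl41 was the exception. It encodes a very short basic peptide that bridges the subunits, on GRCm38 chr10:128548114-128549305, minus strand, with no exon overlap with another gene and 1 near-identical copy. It was at 84.9, 89.8 and 87.6 CPM in WT dim tdT and 209, 197 and 252 CPM in WT bright tdT, and at 68.0, 62.7 and 74.9 CPM in AS dim tdT and 105, 103 and 123 CPM in AS bright tdT. The fractions were apart in both genotypes, and the log2 fold changes were 1.38 (SE 0.22, adjusted p = 0.00202) in WT and 0.67 (SE 0.17, adjusted p = 0.00693) in AS. Rpl24, also at a bridge between the subunits, had only 3.07, 3.72 and 2.78 CPM in WT dim tdT and 3.42, 3.49 and 5.92 CPM in WT bright tdT, which overlapped, and a log2 fold change of 0.47 (SE 0.49, adjusted p = 0.515) in WT and -0.50 (SE 0.37, adjusted p = 0.280) in AS.

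When the members' own total served as the library size, the question became which members departed from the rest. On this scale the median of all genes stood at 1.08 in WT and 1.05 in AS. In WT, 4 of 65 members were higher against the total and none lower, beside 39.4% and 4.93% of all genes (44.3% either way), and an unadjusted p under 0.05 was reached by 5 upward and 0 downward. They were Rpl36al (2.99, adjusted p = 0.0365), Rpl41 (2.48, 0.000393), Rpl24 (1.54, 0.0467) and Rps3 (0.81, 0.0489). The value of Rpl36al rested on bright tdT replicate 3, without which it was 0.64 and not called. Leaving out a library left 1 of the 4 calls without dim tdT replicate 1, dim tdT replicate 2 or bright tdT replicate 3, 2 without dim tdT replicate 3 or bright tdT replicate 2, and 3 without bright tdT replicate 1. With the mouse as a block 6 were higher, with Rps21 (adjusted p = 0.0296) and Rps27l (0.044) added.

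In AS, 9 of 64 members were higher and 2 lower against the total, beside 55.6% and 10.7% of all genes (66.4% either way). The highest were Rpl41 (1.72, adjusted p = 6.16e-05), Rps27l (1.02, 0.0107), Rpl15 (0.97, 0.000874), Rps3 (0.80, 0.00618) and Rpl13a (0.77, 0.0119). The other 4 were Rps14, Rpl7a, Rps2 and Rpl31, and Rps2 (adjusted p = 0.0546) and Rpl31 (0.0918) lost their calls with the mouse as a block. Over 8 alternatives the call was lost in 7 for Rpl31 (adjusted p up to 0.154), 5 for Rps2, 3 for Rpl7a and 1 for Rps14. Rps28 (-0.68, 0.0233) and Rps15a (-0.63, 0.0158) were the 2 that were lower. Rps28 lost this call in 3 of 8 alternatives (adjusted p up to 0.0724) and Rps15a in 2 (up to 0.0552). The number lower was 0 without dim tdT replicate 1, 1 without dim tdT replicate 2 or 3 and 4 without bright tdT replicate 2, and the number higher was 5 without dim tdT replicate 1. Rpl41 was called higher against the total in both genotypes under every setting tried, whereas Rps3 in WT lost its call in 7 of 8 alternatives, where the adjusted p ran from 0.022 to 0.142.

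**Figure D4:**
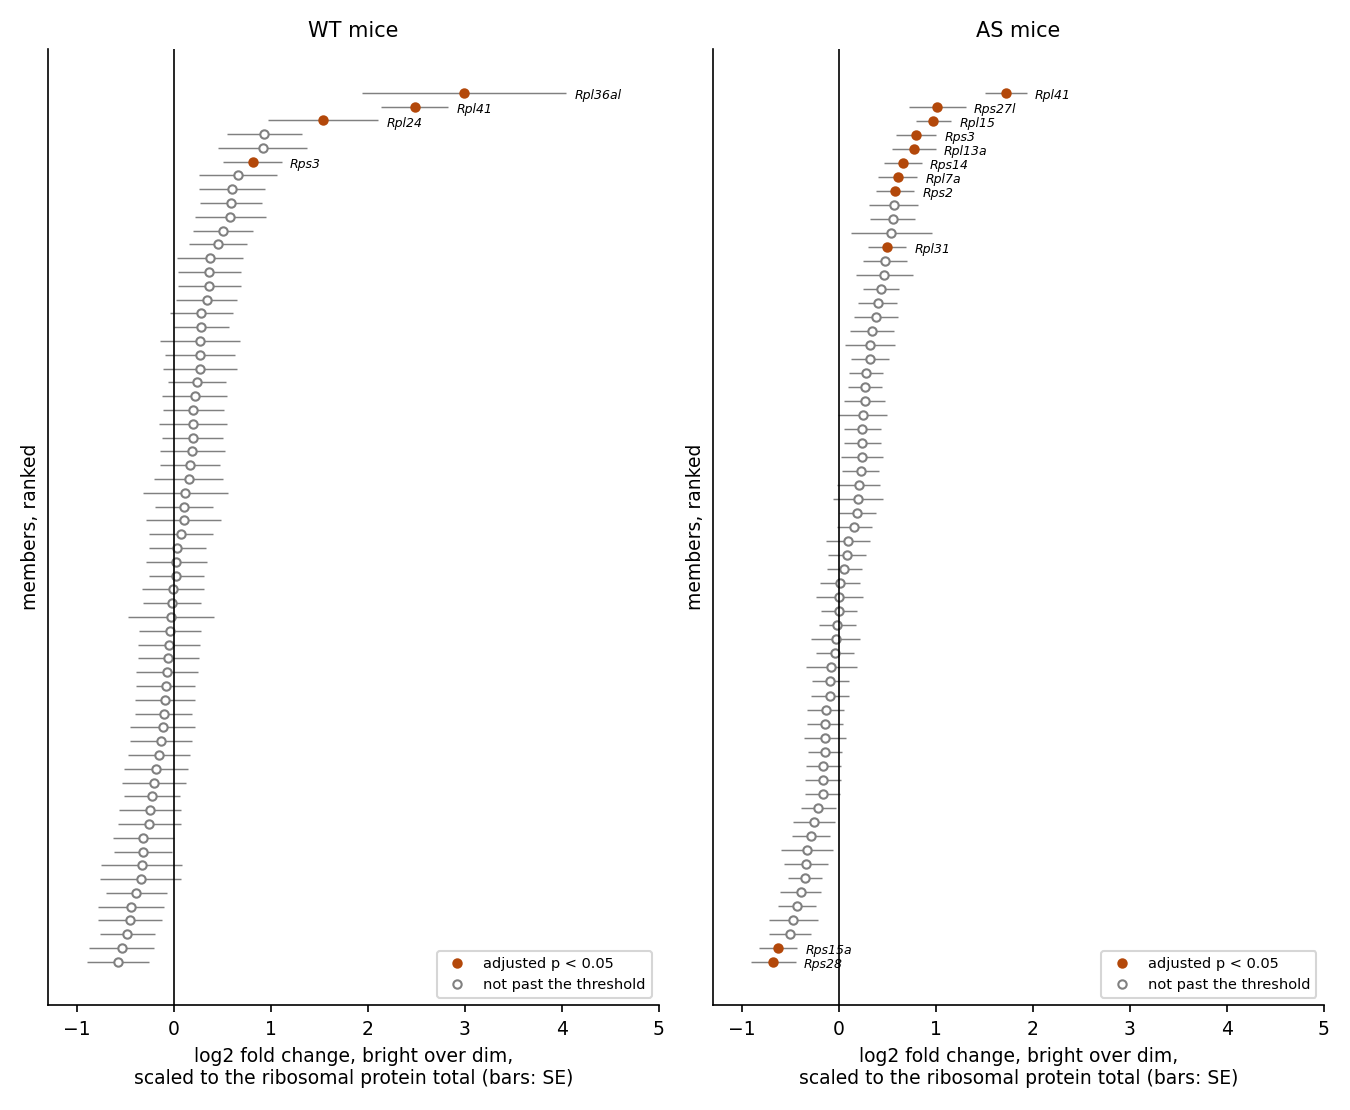
Bright tdT over dim tdT, as log2 fold change, for each ribosomal protein gene except 1, with the summed counts of these genes as library size, WT and AS in separate panels, filled where the adjusted p is under 0.05. Rpl41 lies at 2.48 in WT and 1.72 in AS, and most other members lie close to 0.

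Few members passed between genotypes. In the dim tdT fraction, 1 of 64 tested members was higher in AS than in WT and none was lower, beside 2.21% and 6.41% of all 14637 genes (8.62% either way). Their median log2 fold change was 0.03 against -0.02 for all genes. At an unadjusted p under 0.05, 5 members pointed up and 1 down, beside 3846 of all 14637 genes in either direction. Without WT replicate 2 the member counts were 1 and 2 with a median of -0.12. Without AS replicate 1 they were 1 and 0 with -0.015, and without AS replicate 3 they were 2 and 0 with -0.017. The sign of the median thus turned with single libraries. Rpl13, of the large subunit, was the 1 called, at 145, 129 and 106 CPM in WT and 222, 198 and 246 CPM in AS, without overlap, and a log2 fold change of 0.78 (SE 0.20, adjusted p = 0.0475). The adjusted p ranged from 0.0102 to 0.175 over the alternatives, and the call was lost when any 1 of the 6 libraries was left out. Exons of Rpl13 hold Snord68 and the gene has 7 near-identical copies. In all, 12 of 64 members lay above and 3 below without overlap (all genes 15% and 16.2%).

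In the bright tdT fraction no member passed the edgeR test, and 0.188% of all 14396 genes were called higher and 0.264% lower (0.452% either way). The members' median was 0.11 against -0.03 for all genes. Unadjusted, 13 members were higher and 1 lower at p under 0.05, beside 3145 of all 14396 genes in either direction. Without WT replicate 2 the member counts were 4 and 9 with a median of -0.041. Without AS replicate 1 they were 1 and 1 with -0.020, while without WT replicate 1 the median was 0.32. Without WT replicate 3 they were 7 and 1. The 3 highest were Rpl13 (0.88, adjusted p = 0.0878), Rpl4 (0.82, 0.116) and Rpl17 (0.77, 0.170). The 3 lowest were Rpl41 (-1.07, 0.0517), Rpl24 (-0.66, 0.420) and Rpl27 (-0.62, 0.331).

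Rpl13 was at 81.7, 62.2 and 62.7 CPM in WT and 165, 108 and 128 CPM in AS, and Rpl41 at 209, 197 and 252 CPM in WT and 105, 103 and 123 CPM in AS. Both genes had separate groups. DESeq2 called Rpl13 (adjusted p = 0.0237) and Rpl4 (0.0446) higher and Rpl41 (0.000188) lower, and over all alternatives the adjusted p of Rpl41 ranged from 0.000188 to 0.292. In the bright tdT fraction, 10 members lay above and 2 below without overlap, beside 13.6% and 10.9% of all genes. In dim tdT, Rpl41 had a log2 fold change of -0.38 (SE 0.19, adjusted p = 0.235).

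**Figure D5:**
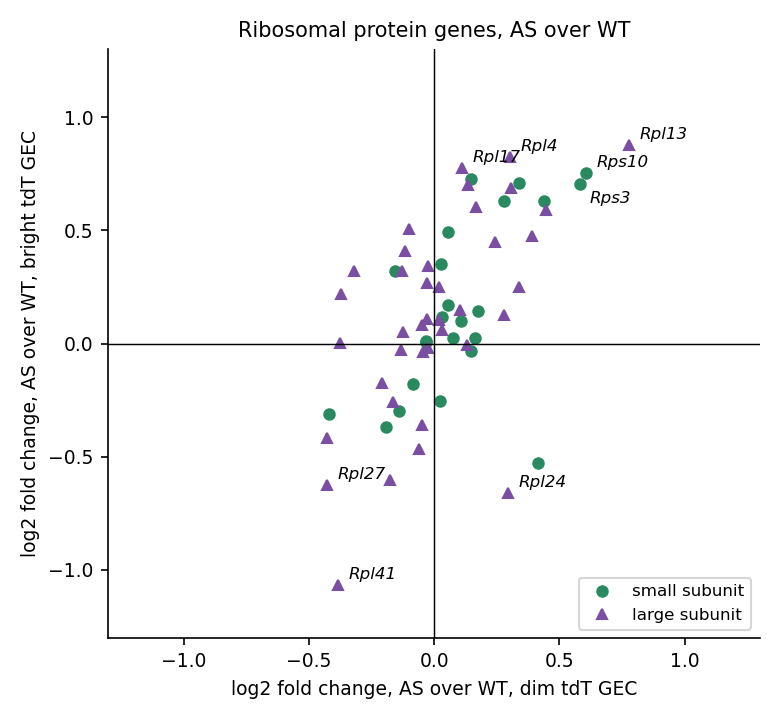
Log2 fold change of AS over WT in dim tdT (horizontal axis) and bright tdT (vertical axis) for each ribosomal protein gene tested in both except 1, small and large subunit in separate colours, each from 3 against 3 libraries. Rpl13 lies highest, at 0.78 and 0.88, and Rpl41 lowest on the vertical axis, at -1.07.

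Against the members' total no member passed in dim tdT (1.92% of all genes higher and 5.01% lower, 6.93% either way) or in bright tdT (0% of all genes). Before adjustment, 7 members were higher and 1 lower at p under 0.05 in dim tdT, beside 3691 of all 14637 genes in either direction. In bright tdT, 3 members were higher and 1 lower before adjustment. When a library was left out, the members higher at an unadjusted p under 0.05 ranged from 2 (without AS replicate 3) to 11 (without WT replicate 2) in dim tdT. In bright tdT they came to 13 without WT replicate 2, 2 without AS replicate 3 and 0 without any other library. DESeq2 called 2 higher in dim tdT, and none in bright tdT. The difference of the genotype effects between the fractions, tested as an interaction over all 12 libraries, was called for none of 65 members, beside 2.96% of all genes higher and 0.815% lower (3.77% either way). DESeq2 called none as well, and at an unadjusted p under 0.05 edgeR gave 0 higher and 2 lower. The highest log2 differences of bright tdT minus dim tdT effects were Rpl17 (0.70), Rpl38 (0.69) and Rpl15 (0.65), and the lowest Rpl36al (-2.86, SE 1.96), Rpl24 (-0.92) and Rps21 (-0.90), with adjusted p from 0.208 to 0.473. Without WT bright tdT replicate 3 Rpl36al had -0.40, and no member lay below -0.80. Rpl41 had -0.64 (adjusted p = 0.193).

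Several ribosomal proteins have a further gene, and the pairs were compared side by side in bright tdT over dim tdT. Rps4x, X-linked and of the small subunit, was at 759, 669.7 and 884 CPM in WT dim tdT and 399, 297 and 364 CPM in WT bright tdT, and fell by 1.07 in WT (adjusted p = 0.00968) and by 0.98 in AS (0.000528) on the log2 scale. Its retrogene Rps4l, not a member because of its deposited type and a transcribed processed pseudogene in Gencode M21 at chr6:148354656-148355598, plus strand, was at 14.1, 7.60 and 15.4 CPM in WT dim tdT and 50.6, 34.8 and 69.6 CPM in WT bright tdT. In AS it was at 7.14, 12.5 and 8.70 and 39.3, 23.7 and 46.7 CPM. It rose without overlap, by 2.11 (SE 0.40, adjusted p = 0.00477) in WT and 1.94 (SE 0.32, adjusted p = 0.000565) in AS, while Rps4x fell.

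No difference within a pair was tested. Rps27 had -0.73 in WT and -0.93 in AS (adjusted p = 0.149 and 0.00969), and Rps27l, induced by p53, -0.12 and -0.03 (0.874 and 0.922). Rpl22l1 had 0.20 and 0.12 (0.752 and 0.697) beside the values of Rpl22 given above. Rpl7 and Rpl3, like Rpl22, are not members because of their deposited type. Rpl7 fell by 0.95 and 0.80, and its WT call was lost in 2 of 16 alternatives (adjusted p up to 0.0728). Rpl7l1, which works in the nucleolus, had -0.16 and -0.10 (0.653 and 0.696). Rpl36a had -0.97 (0.0583) and -0.47 (0.0790). Rpl36al had 1 to 104 counts a library, was at 0.351, 0.169 and 1.52 CPM in WT dim tdT and 0.822, 0.0713 and 6.84 CPM in WT bright tdT, and was tested in WT alone, with 1.96 (SE 1.24, adjusted p = 0.279) and an adjusted p of 0.0496 with the mouse as a block. Without bright tdT replicate 3 its value was -0.47. Rpl39 had -0.92 (0.103) and -0.56 (0.117), and Rpl3 -0.62 (0.105) and -0.46 (0.0566).

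Ribosomal protein genes have many pseudogenes, to which reads can be lost. Of the 67 members, 51 had at least 1 other annotated transcript with 95% identity over 50% of their length (median 3, most 56), and 32 shared exons with another gene, 24 on the same and 15 on the opposite strand. The 8 tested members with neither had a median of -1.01 in WT, with 5 lower, and -0.78 in AS, with 6 lower. The 16 name matches of another deposited type had 7 lower and 1 higher in WT and 13 lower and 1 higher in AS. Both sets stand beside 11.5% of all genes lower and 13.8% higher in WT, and 26.5% and 28.6% in AS. Of ribosomal proteins whose names do not match, Fau, made as a fusion with a ubiquitin-like protein, had -1.36 in WT and -1.57 in AS, Rps3a1 -1.47 and -1.52, and Rack1, a scaffold on the small subunit, -1.02 and -0.76, all past the threshold.

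The members were also split by the letters at their start. The median log2 fold change in WT was -0.90 over the 12 with it and -1.05 over the 38 without, and in AS -0.81 over 12 and -0.95 over 37. Those with CCGGAAG had -0.92 over 21 in WT and -0.77 over 21 in AS, and those without it -1.07 over 29 and -1.06 over 28. These medians are given without a test.

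The counts of other translation genes stand beside 13.8% of all genes called higher and 11.5% called lower in WT, and 28.6% and 26.5% in AS. Of 38 translation initiation and elongation factors, 3 were higher and 4 lower in bright tdT in WT, with Eif1a, a factor of start codon scanning, at 1.12, Eif3f and Eif3e, subunits of the initiation factor eIF3, at -1.11 and -0.78, Eif5b, which joins the subunits, at -0.93 and Eif1 at 0.78. In AS, 8 were higher and 8 lower, with Eif1b at 1.32, Eif4g2 at 1.27, Eif3f at -1.26, Eif1 at 1.11 and Pabpc4 at -0.89. Of 48 ribosome assembly genes, 2 were higher and 4 lower in WT, and 3 higher and 12 lower in AS. Rrp1b had -2.15 and -2.90, Fbl, the rRNA methyltransferase fibrillarin, -1.41 and -1.67, and Heatr1 -1.21 and -2.32 in WT and AS, whereas Nop58 and Nop2 were higher in WT, at 1.91 and 1.71, and Mdn1 and Ltv1 lower in AS, at -1.54 and -1.36. Nop2 in WT and Pabpc4 in AS each lost the call in 8 of 16 alternatives, with the adjusted p at 0.0715 and 0.0506 with the mouse as a block and up to 0.139 and 0.303. Nop2 ranged from 1.29 without bright tdT replicate 1 to 2.42 without dim tdT replicate 3, and Pabpc4 had -0.32 without dim tdT replicate 1. In WT the call was also lost in 6 alternatives for Eif1, 5 for Eif3e, 4 for Eif1a, 3 each for Eif5b and Heatr1 and 1 for Eif3f.

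Of 21 genes known to regulate ribosomal protein mRNAs, 0 were higher and 1 lower in WT, and 3 higher and 8 lower in AS. Myc, a transcription factor that drives ribosome production, was at 61.7, 49.2 and 72.8 CPM in WT dim tdT and 9.87, 11.3 and 12 CPM in WT bright tdT, without overlap, at a log2 fold change of -2.42 (SE 0.31, adjusted p = 0.000488), and at 133, 199 and 96.7 and 58.7, 55.2 and 93.3 CPM in AS, with -1.06 (SE 0.29, adjusted p = 0.0114). The AS call of Myc was lost in 1 of 16 alternatives (adjusted p up to 0.0607). In AS, Eif4ebp1 and Larp1, through which mTOR acts on TOP mRNAs, had -2.01 and -1.12, Larp4b -1.29, and Tsc1, an inhibitor of mTOR, -1.55. The genes of the mitochondrial ribosome, which translates inside mitochondria, had medians near 0. Of its 79 genes, 0 were higher and 4 lower in WT (median -0.11), and 9 higher and 12 lower in AS (median 0.01). Of the proteasome subunits, another large complex of even make-up, 1 of 37 was higher and 0 lower in WT (median 0.22), and 7 of 39 were higher and 2 lower in AS (median 0.17).

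In AS over WT, 2.21% of all genes were called higher and 6.41% lower in dim tdT, and 0.188% and 0.264% in bright tdT. Of the 38 translation factors, 4 were higher in dim tdT and none lower, namely Eif3k (1.03), Eif3f (0.81), Eif4g3 (0.77) and Eef2 (0.62), and none passed in bright tdT. Of the 21 regulators, Myc was higher in AS in both fractions, with 1.19 (SE 0.30, adjusted p = 0.0463) in dim tdT and 2.57 (SE 0.28, adjusted p = 0.0225) in bright tdT, and Zfp622 was higher in dim tdT (1.15). The call of Myc was lost in 8 of 16 alternatives in dim tdT (adjusted p from 0.00617 to 0.157) and in 4 of 16 in bright tdT (5.95e-14 to 0.125), the latter without WT replicate 3, AS replicate 1 or AS replicate 3 and with the fit of edgeR version 3. Of the other 5 genes, Eif3f, Eef2 and Zfp622 lost their calls in 8 alternatives each and Eif3k and Eif4g3 in 6. None of 48 ribosome assembly genes passed in either fraction. Proximal tubule markers, given by their sums above, were lower in AS than in WT dim tdT for 8 of 14 genes and endothelial markers for 8 of 13, while 3 of 17 leukocyte markers were higher, and their part in these values was not tested.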

How the data were processed

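mRNA was sequenced from the dim tdT and bright tdT cells of 3 WT and 3 AS mice. The authors aligned paired reads with STAR 2.6.0c to GRCm38.p5 with Gencode M16 and deposited counts per gene in a table for each fraction, not normalized. FastQC 0.11.5, cutadapt, Trimmomatic and edgeR also stand in the submitters' processing notes. The strand used in counting is not given in the sources used here. The deposited RPKM were computed by the authors with a gene length of their own and served only to rank levels. The deposited log2 fold changes, likelihood ratio scores and p-values of the authors' comparisons were not used.

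Libraries held 11440169 to 15074909 counts. Each comparison was tested on counts with the quasi-likelihood test of edgeR 4.0.16 under R 4.3.3 (TMM, filterByExpr), and adjusted p-values (Benjamini-Hochberg over every gene tested) were held to 0.05. ERCC spike-ins stayed out of the fits. The standard error (SE) of a log2 fold change was derived from the test, as its absolute value divided by the square root of the F statistic. CPM used TMM library sizes over the 12 libraries. The ratio within a mouse used CPM + 0.1. The fractions were compared on the 15768 genes that both tables hold. Alternatives included DESeq2 1.42.0. The fits were tested on simulated data, where called changes had the right sign, part of the changed genes was missed and the share of false calls was above the adjusted threshold in each comparison. Replicates of a group differed by a chi-square of 29.5 to 104 per degree of freedom.

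The mouse number in the labels ties the fractions of a mouse. Their deviations from the group means correlated with r = 0.279, 0.252 and 0.0965 in WT and 0.0898, 0.460 and 0.198 in AS. Between different mice of a genotype r ran from -0.229 to 0.00892 in WT and from -0.347 to 0.257 in AS, which overlapped in AS. Over the members alone, r within a mouse was 0.145, 0.273 and 0.137 in WT and -0.0389, -0.344 and -0.256 in AS. Different mice there reached 0.156 in WT and 0.327 in AS. The AS and WT numbers pair no samples. With 3 against 3 libraries an exact permutation test cannot go below 0.1, and none is given.

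The members, gene lists and rules were chosen with earlier results of these data known. Named were the 10 members highest in RPKM, up to 5 highest and 5 lowest past the threshold per comparison (3 and 3 as values where none passed), 17 role genes, the pairs, and up to 5 genes past the threshold of each list. Exon overlaps and copies came from Gencode M21, promoters from RefSeq on GRCm38.p6. The values of 1 member are not reported here and it is left out of the figures by gene, though it counts in every total.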

Additional observations from a re-analysis of the deposited data

How the results depend on the processing

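The members' median log2 fold change ran over the settings from -1.16 to -0.83 in WT and from -1.05 to -0.76 in AS for bright tdT over dim tdT. For AS over WT it crossed 0, from -0.12 to 0.11 in dim tdT, from -0.041 to 0.32 in bright tdT and from -0.077 to 0.28 for their difference. Of the values of 161 gene results, 2239 kept direction and side of the threshold, 192 lost the call, 47 gained it and 11 reversed. Unless a value shows it, the cause was not tested.

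Members higher in AS dim tdT (1) came to 0 with the fit of edgeR version 3, chosen after seeing the data, with every gene with a count and with the replicate block, and to 0 when a library was left out. In AS over WT bright tdT (0), 1 was lower under RLE normalization, library sizes alone, DESeq2, the likelihood ratio test, an average logCPM above 1 and all 12 libraries in one fit, and 0 to 1 when a library was left out, and 2 were higher under DESeq2 and 1 under the likelihood ratio test. In WT bright tdT over dim tdT the replicate block gave 2 higher, and leaving out a library gave 22 to 40 lower, in AS 41 to 53. Against the members' total, DESeq2 gave 2 higher in AS over WT dim tdT and 2 in WT bright tdT over dim tdT, where leaving out a library gave 1 to 3, and in AS 5 to 13 higher and 0 to 4 lower. In the paired fits no other call of a member or named gene changed beyond those given beside the results. For AS over WT, where numbers pair no samples, the replicate block took the adjusted p in dim tdT to 0.103 for Rpl13 and to 0.0575 (Eif3k) to 0.112 (Myc) for the 6 translation factors and regulators.

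The share of counts came to 3.20% in WT dim tdT and 3.04% in AS dim tdT without mitochondrially encoded genes. As a share of summed RPKM it was 4.13%, 4.23%, 2.64% and 2.18% in WT dim tdT, AS dim tdT, WT bright tdT and AS bright tdT. Chosen after seeing the data, it was 2.19% and 2.35% in the dim tdT groups without Rpl27, and 3.29% and 3.36% there and 1.65% in AS bright tdT with name matches of every deposited type.

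Bright tdT over dim tdT values of 7 genes turned when 1 library was left out, and none of these had passed the test. Over the libraries left out in turn, Rpl22 in AS ranged from -0.18 to 0.067, Rpl15 in AS from -0.21 to 0.11, Rpl7l1 in AS from -0.27 to 0.022 and Rps21 in WT from -0.22 to 0.039, each positive without bright tdT replicate 2 alone. Rpl22l1 in WT ranged from -0.038 (without dim tdT replicate 1) to 0.46, Rpl36al in WT from -0.47 (without bright tdT replicate 3) to 3.35, and Rps27l from -0.63 to 0.24 in WT and from -0.20 to 0.23 in AS. Low counts limit Rpl24, Rpl36al, Rpl3l and Rpl39l.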
